A study of Homo sapiens with 6 samples.

Results

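The 35 genes described here encode the subunits of the hypoxia-inducible factors (HIF), the enzymes that sense oxygen for them, and genes that HIF is known to induce outside glycolysis. They were listed by name from their known roles, out of 61731 genes and loci with a TPM (transcript abundance scaled by length and library, with the same total in every library). The list was chosen on the TPM of the knockdown-labelled against the control libraries, in that the result of this contrast was known when it was proposed, so its counts are a description and give no independent support to a change of the pathway. All 35 genes were found in the table, and 34 reached a mean of 1 TPM over the 6 libraries and were tested, with EGLN3 below that limit.

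The libraries came from U87-MG, an established human glioblastoma cell line, with 3 of negative control cells (genotype label Normal control) and 3 labelled CHRM Knockdown. The study describes lentiviral knockdown of CHRM3, the muscarinic acetylcholine receptor M3, for these cells. Which knockdown sequence the cells carried, whether they were a pool or a clone, and whether each library had a culture of its own is not given in the sources used here. All p-values therefore measure the spread between these samples, which may be technical. The methods describe culture in medium with serum for all cells and no treatment with low oxygen.

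CHRM3 was at 0.02, 0.09 and 0.13 TPM in control replicates 1 to 3 and at 0.13, 0.01 and 0.02 TPM in the libraries labelled as knockdown replicates 1 to 3, with overlapping groups (two-sided exact permutation p = 0.80, where 3 against 3 cannot go below 0.10). The targeted gene was thus too low to check the labels, so a rise or fall below always refers to libraries as they were labelled. Pearson's correlation of log2(TPM + 1) was 0.976 to 0.979 between libraries of a group and 0.964 to 0.969 between groups. Of 7 astrocytic and glioma markers, VIM was abundant and NES and GFAP reached 1 TPM or more on average, and NES (log2 fold change 0.50) and VIM (0.17) were called higher in the knockdown-labelled libraries, whereas AQP4 was listed at 0 in all 6 libraries and SOX2, OLIG2 and S100B stayed under 1 TPM. All 6 leukocyte, 4 endothelial and 2 erythroid markers stayed under 1 TPM in every library, while the 4 fibroblast and mural markers summed to 369.7 to 385.8 TPM in the controls and 362.2 to 373.3 TPM in the knockdown-labelled libraries. Within that list DCN fell (log2 fold change -2.64), COL1A1 (0.18) and PDGFRB (0.78) rose and RGS5 was not called (0.12), and the part of this in the results below was not tested. Transcripts of the mitochondrial genome took 5.32% to 5.47% of TPM in the controls and 4.41% to 4.87% in the knockdown-labelled libraries. With these transcripts left out, 22 of the genes described here were called higher in place of 23. Over all tested genes, 1563 of 13819 were then called higher, in place of 1660 of 13722.

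HIF is a pair of an oxygen-sensitive alpha subunit and the constant partner ARNT. In the presence of oxygen, prolyl hydroxylases of the EGLN family mark the alpha subunit, the VHL ubiquitin ligase binds the marked protein, and the proteasome degrades it. This control acts on the protein, so the mRNA of HIF1A or EPAS1 does not report the activity of the factor, whereas the transcripts of its target genes are its usual readout. Glioblastoma is known for hypoxic, necrotic regions in which such target genes are induced.

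HIF binds the core letters ACGTG or GCGTG in DNA. Both were searched on either strand in the RefSeq promoter windows (GRCh38.p14) that run from 250 bases before to 50 bases after each start site, a length of 300 bases. Of the 35 genes, 29 had an entry, with 38 windows in all, since some have several start sites. The windows below belong to the 5 genes that rose at least 2-fold and had an entry, and are shown because these genes moved together. Capitals mark the matches, which read CACGT or CACGC where the core lies on the other strand. Each sequence is given 5′ to 3′ on the strand of its gene.
CA9 (chr9:35673678-35673977, plus strand): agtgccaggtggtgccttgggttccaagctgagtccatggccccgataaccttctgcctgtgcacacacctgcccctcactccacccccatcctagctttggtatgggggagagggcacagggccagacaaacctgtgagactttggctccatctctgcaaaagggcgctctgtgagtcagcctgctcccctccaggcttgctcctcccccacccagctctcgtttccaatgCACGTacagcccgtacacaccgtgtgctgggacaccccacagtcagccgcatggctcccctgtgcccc
BNIP3 (chr10:131981874-131982173, minus strand): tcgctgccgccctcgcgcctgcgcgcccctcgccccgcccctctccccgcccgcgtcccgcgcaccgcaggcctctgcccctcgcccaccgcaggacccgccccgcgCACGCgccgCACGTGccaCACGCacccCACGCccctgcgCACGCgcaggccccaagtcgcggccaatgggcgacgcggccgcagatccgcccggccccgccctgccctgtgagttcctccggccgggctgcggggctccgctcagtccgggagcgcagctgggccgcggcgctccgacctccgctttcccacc
DDIT4 (chr10:72273674-72273973, plus strand): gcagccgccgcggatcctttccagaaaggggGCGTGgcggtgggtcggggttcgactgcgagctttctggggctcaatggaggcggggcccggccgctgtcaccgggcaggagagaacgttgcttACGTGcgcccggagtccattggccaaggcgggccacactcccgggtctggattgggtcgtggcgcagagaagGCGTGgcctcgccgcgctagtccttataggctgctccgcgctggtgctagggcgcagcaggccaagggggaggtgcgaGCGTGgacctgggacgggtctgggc
FAM162A (chr3:122383932-122384231, plus strand): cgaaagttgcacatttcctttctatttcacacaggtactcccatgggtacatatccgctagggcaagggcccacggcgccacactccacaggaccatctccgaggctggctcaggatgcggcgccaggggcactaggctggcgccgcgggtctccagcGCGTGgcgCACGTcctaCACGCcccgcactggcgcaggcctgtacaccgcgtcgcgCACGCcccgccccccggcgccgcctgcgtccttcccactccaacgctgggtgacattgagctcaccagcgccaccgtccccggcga
MIR210HG (chr11:568408-568707, minus strand): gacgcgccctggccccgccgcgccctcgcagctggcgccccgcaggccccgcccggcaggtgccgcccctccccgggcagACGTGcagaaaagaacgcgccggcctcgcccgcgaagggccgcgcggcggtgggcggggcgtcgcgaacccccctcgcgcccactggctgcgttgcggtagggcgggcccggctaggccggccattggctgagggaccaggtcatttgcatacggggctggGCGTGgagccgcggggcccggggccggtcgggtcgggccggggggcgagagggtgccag

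CA9 held 1 match, 18 bases before the start site. BNIP3 held 6, all between 143 and 104 bases before the start, among them a palindrome CACGTG, which counts on both strands and is also the core of the E-box bound by MYC, MAX and the clock proteins. DDIT4 and FAM162A held 4 each, and MIR210HG held 2. At least 1 match was present in 30 of the 38 windows (78.9%), against 61.0% of 14413 windows of tested genes and 48.4% of all 35116 windows. For ACGTG alone the shares were 52.6%, 26.0% and 21.4%, and for GCGTG alone 57.9%, 48.6% and 36.5%. By gene, 18 of the 19 members called higher with an entry held a match, and 6 of the 10 others did. The 10 others include EGLN3, which was not tested. By window the shares were 88.5% of 26 and 58.3% of 12, beside 61.0% for tested genes. No share by gene was computed over all tested genes, and genes with several windows had more chances of a match. The list was made of known HIF genes with this contrast known, so nothing is read from this split. TMEM45A rose and had no match, and ADM fell and had 1 match, and EGLN2 fell and had matches in 1 of its 2 windows. A match describes letters in this window only and is no evidence of binding.

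**Figure D1:**
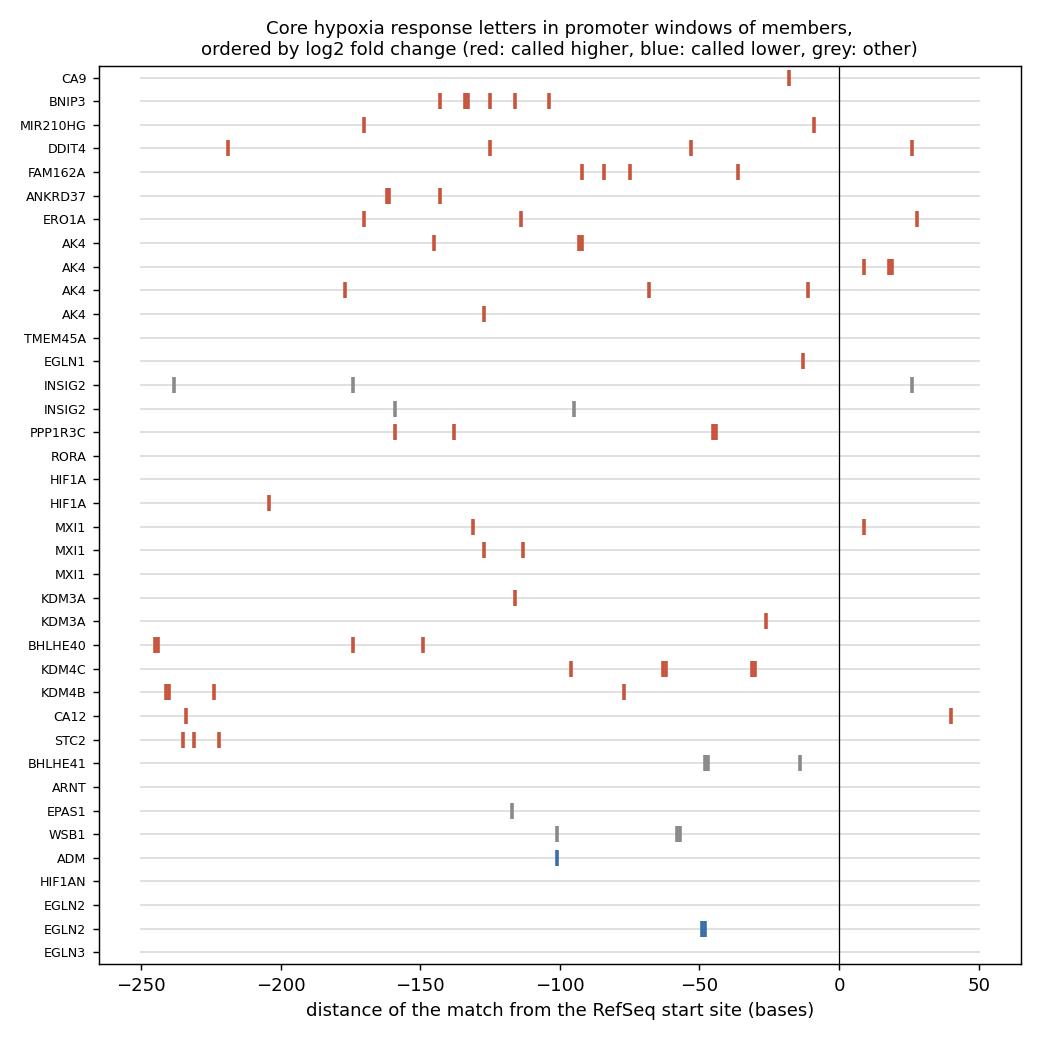
Positions of ACGTG and GCGTG (either strand) in the 38 promoter windows of 29 genes, as the distance of the first matched base from the RefSeq start site in bases, with 1 line per window and genes ordered by log2 fold change. The 5 genes with the largest changes that had an entry, at the top, each hold at least 1 match. Matches are also found in genes that were not called or were called lower, and in 61.0% of 14413 windows of tested genes. The genes were listed as HIF genes with this contrast known, so nothing is read from the order.

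Differences were tested with limma on log2(TPM + 1) over all 13722 genes whose mean TPM reached 1, with Benjamini-Hochberg adjustment over all of them, and a gene was called at an adjusted p under 0.05. Of the 34 tested genes, 26 were called, where 36.1% of all tested genes were. Of these, 23 were called higher, against 12.1% of all tested genes, and 3 were called lower, against 24.0%. Over all tested genes this split was 1660 higher and 3295 lower, and became 2306 higher and 2250 lower with median-of-ratios scaling, under which 25 of the genes described here were higher. At least 2-fold rises (a log2 fold change of 1 or more) were found for 7 genes, CA9, BNIP3, MIR210HG, DDIT4, NDRG1, ZNF395 and FAM162A, against 0.670% of all tested genes. ANKRD37 joined them, for a count of 8, with a pseudocount of 0.1 or 0.5 and without control replicate 1 or knockdown replicate 1. In these settings, in this order, 145, 115, 89 and 101 of all tested genes rose at least 2-fold. The 3 libraries of one group lay entirely above the 3 of the other, with the knockdown-labelled libraries higher, for 24 of the 34 genes (17.4% of all tested genes) and with them lower for 5 (32.8%). The median log2 fold change was 0.28 for the 34 genes and -0.06 for all tested genes. Summed over the 35 genes, TPM was 1302 to 1347 in the controls and 2075 to 2110 in the knockdown-labelled libraries. In the controls HIF1A was the most abundant of them, and in the knockdown-labelled libraries BNIP3 was. Since members were proposed with this contrast known, nothing is read from these counts.

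**Figure D2:**
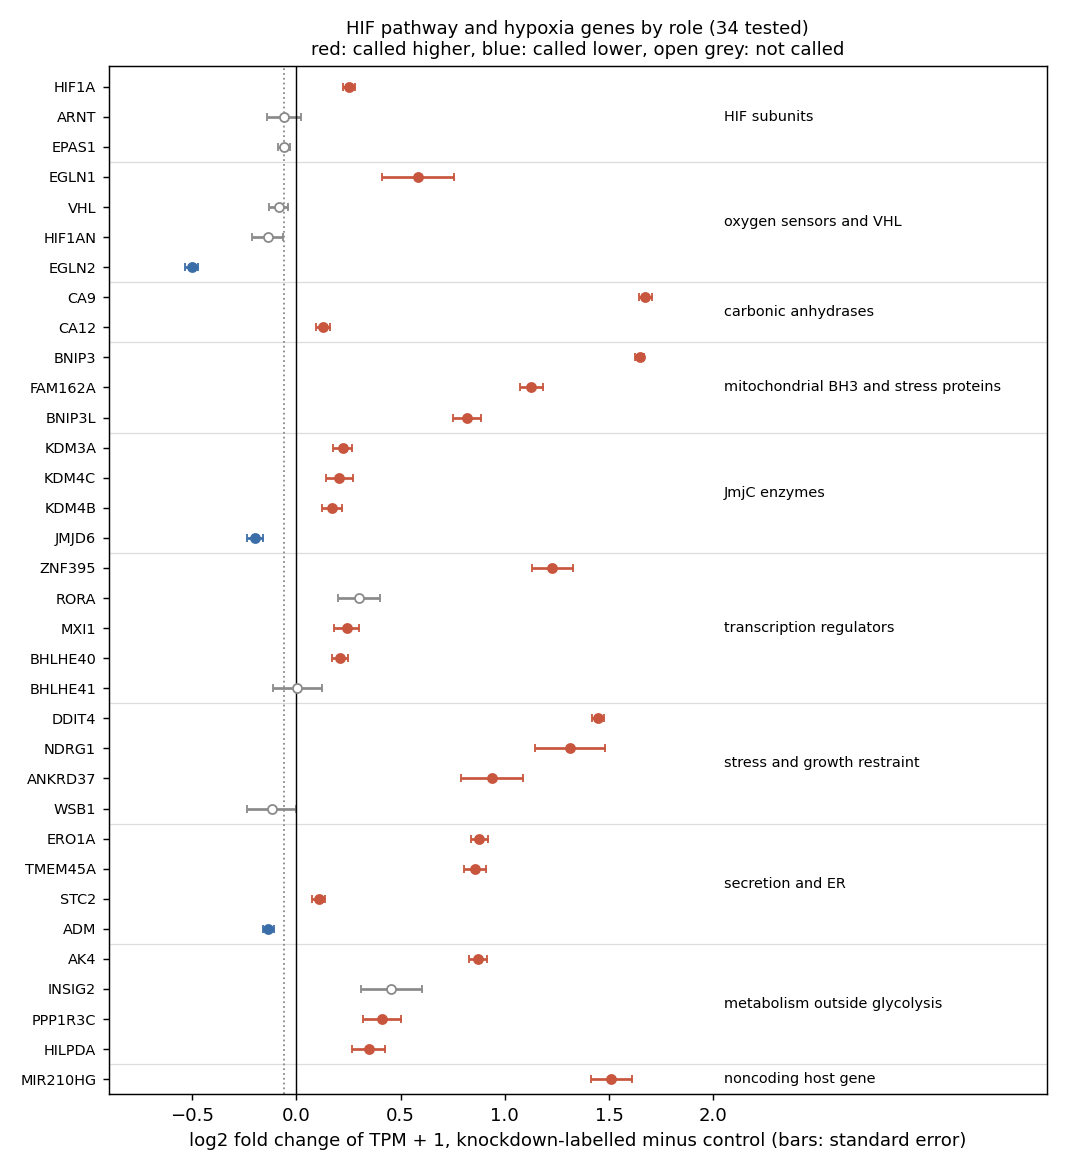
Log2 fold change of TPM + 1, knockdown-labelled minus control (x axis, log2 units), with its standard error from limma, for the 34 tested genes grouped by role. The dotted line marks the median of all tested genes, -0.06. CA9, BNIP3, MIR210HG and DDIT4 lie farthest to the right, and EGLN2 lies farthest to the left at -0.50.

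Of the 23 genes called higher, 13 rose by 0.5 or more on the log2 scale and 10 by less. The calls of 14 genes held in all 17 other settings tried, namely HIF1A, CA9, BNIP3, BNIP3L, FAM162A, BHLHE40, ZNF395, DDIT4, NDRG1, ANKRD37, ERO1A, TMEM45A, AK4 and MIR210HG. An adjusted p under 0.01 was among these settings, and the same 14 genes were those called higher under it. Over all tested genes, 958 of the 1660 called higher passed that limit.

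**Figure D3:**
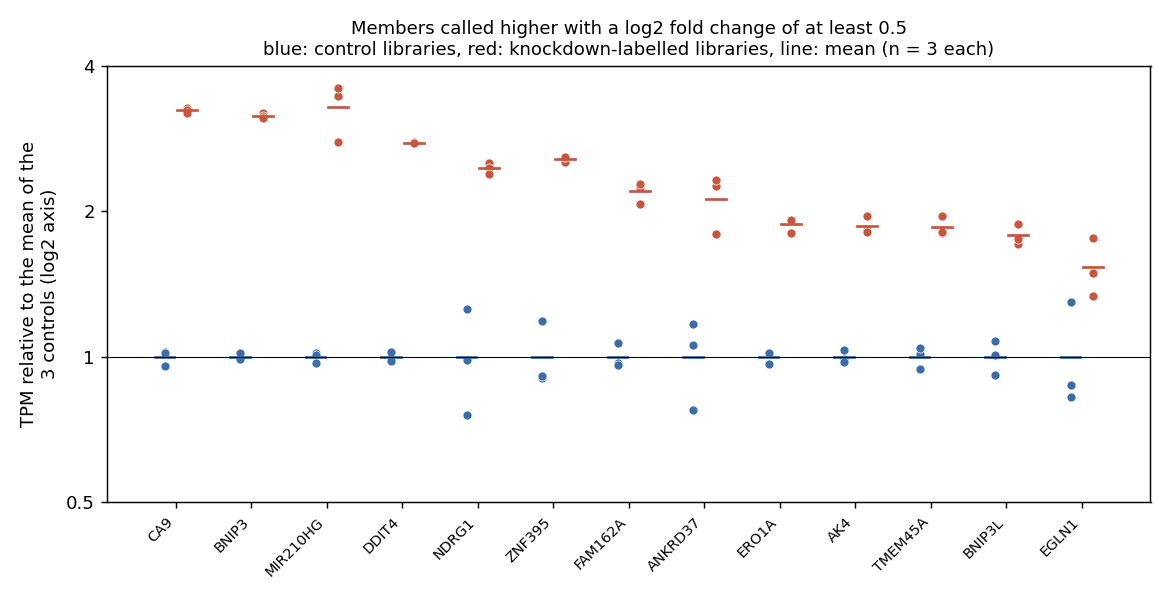
TPM of each library divided by the mean of the 3 controls (log2 axis) for the 13 genes called higher by 0.5 or more on the log2 scale, with controls in blue, knockdown-labelled libraries in red and the group mean as a line. For each gene all red points lie above all blue points, with the smallest gap for EGLN1.

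The alpha subunits and their partner moved little. HIF1A (ENSG00000100644, chromosome 14 from 61695513 to 61748259 on GRCh38), the widely expressed alpha subunit, was at 166.3, 170.3 and 168.5 TPM in the controls and at 203.0, 205.6 and 194.0 TPM in the knockdown-labelled libraries. All knockdown-labelled libraries were above all controls, and HIF1A rose 1.19-fold (log2 fold change 0.25, standard error 0.0274). EPAS1 (chromosome 2 from 46293667 to 46386703), which encodes the alpha subunit HIF2A, was at 71.7, 72.6 and 74.7 TPM in the controls and at 68.9, 69.4 and 71.4 TPM in the knockdown-labelled libraries. It was not called (log2 fold change -0.06, standard error 0.0289, and 0.01 with median-of-ratios scaling), although its groups did not overlap. ARNT, the beta subunit that both alpha subunits need, was at 9.79, 9.73 and 9.27 TPM and at 8.12, 10.12 and 9.36 TPM, with overlapping groups and no call. The TPM of HIF1A was 2.31 ± 0.0467 times that of EPAS1 in the controls and 2.87 ± 0.138 times in the other group (SD, n = 3 each), and ARNT was the least abundant of the 3 subunits in every library.

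The 2 oxygen sensors that were called moved in opposite directions, and the rise, in EGLN1, was the less stable call. EGLN2 (PHD1, chromosome 19 from 40798996 to 40808433), the prolyl hydroxylase that is not itself known as a hypoxia-induced gene, was at 92.1, 91.7 and 94.2 TPM in the controls and at 64.7, 63.6 and 67.1 TPM in the knockdown-labelled libraries. It fell to 0.703 of the control level, with no overlap (log2 fold change -0.50, standard error 0.0296), the largest fall among the 34 genes. The read-through gene RAB4B-EGLN2, which shares 2012 of the 6577 exonic bases of EGLN2 on the same strand, ranged from 14.2 to 18.0 TPM in the controls and from 11.11 to 12.99 TPM in the knockdown-labelled libraries. EGLN1 (PHD2), the main HIF prolyl hydroxylase in most cells and a HIF target, was at 12.4, 7.90 and 8.36 TPM in the controls and at 14.3, 16.9 and 12.8 TPM in the knockdown-labelled libraries. EGLN1 rose 1.53-fold (log2 fold change 0.58, standard error 0.175), with control replicate 1 close below the lowest knockdown-labelled library. Leaving out control replicate 1 kept its call, and leaving out any other library ended it, with log2 fold changes of 0.47 and 0.51 without control replicates 2 and 3, and of 0.60, 0.48 and 0.67 without knockdown replicates 1, 2 and 3. In all, 10 of the 17 other settings ended the call of EGLN1. Among them were a fit with no trend, a replicate block, no limit on low values and a limit of 0.1 TPM.

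EGLN3 (PHD3), often among the most strongly hypoxia-induced genes, was at 0.07, 0.00 and 0.00 TPM in the controls and at 0.22, 0.10 and 0.10 TPM in the knockdown-labelled libraries. EGLN3 was too low to be tested. Of the summed TPM of the 3 EGLN genes, EGLN2 held 88.1% to 92.1% in the controls and 78.9% to 83.9% in the knockdown-labelled libraries, and the sum went from 99.6 to 104.6 TPM down to 79.2 to 80.5 TPM. HIF1AN, the asparagine hydroxylase that blocks the HIF transactivation domain, was at 10.83, 10.60 and 10.04 TPM and at 8.48, 10.04 and 9.88 TPM, with no call (log2 fold change -0.14, standard error 0.0741). HIF1AN shares 325 of 13950 exonic bases with NDUFB8 on the opposite strand. NDUFB8 ranged from 401.66 to 418.95 TPM in the controls and from 447.75 to 457.83 TPM in the knockdown-labelled libraries. Whether its reads entered the values of HIF1AN was not tested. VHL, the substrate receptor of the ligase, was at 14.05, 14.08 and 13.50 TPM and at 12.58, 13.14 and 13.35 TPM, with no call and no overlap (log2 fold change -0.09, standard error 0.0453). Thus 1 sensor was called higher, 1 was called lower, 2 genes were not called and 1 was not tested. Over all tested genes 12.1% were called higher and 24.0% lower. With only 4 tested genes, these counts are no result about the sensors as a set. The higher call, of EGLN1, was lost in 10 of the 17 other settings.

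**Figure D4:**
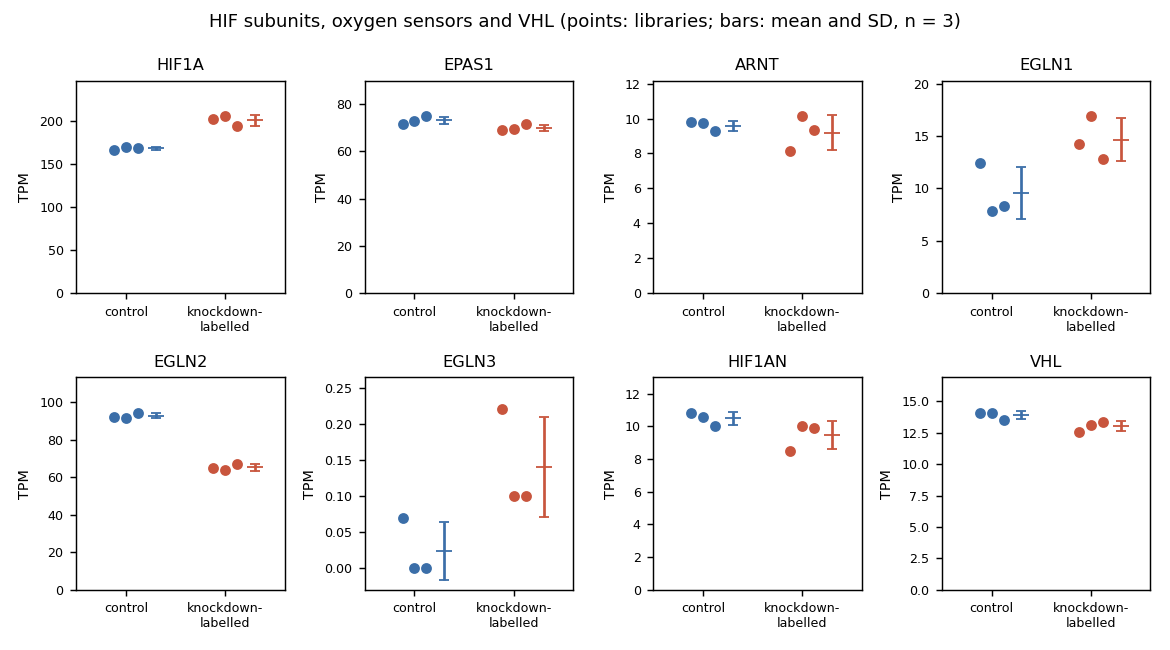
TPM of the HIF subunits, the oxygen sensors and VHL in each library (points), with mean and SD (n = 3) beside them, controls in blue and knockdown-labelled libraries in red; each panel has its own y axis. HIF1A and EGLN1 lie higher and EGLN2 lower in the knockdown-labelled libraries, and EGLN3 stays at or under 0.22 TPM.

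Among the carbonic anhydrases, which set the pH outside the cell membrane, the change was almost all in CA9. CA9 (ENSG00000107159, chromosome 9 from 35673856 to 35681159), a classic marker of hypoxia, was at 47.5, 50.7 and 50.6 TPM in the controls and at 162.4, 160.3 and 158.4 TPM in the knockdown-labelled libraries. It rose 3.24-fold (log2 fold change 1.67, standard error 0.0324), and only 41 of the 13722 tested genes had a larger log2 fold change. CA12, its membrane-bound paralog, was at 51.7, 52.6 and 52.9 TPM and at 57.6, 58.8 and 55.6 TPM, a rise of 1.09-fold (log2 fold change 0.13). The TPM of CA12 was thus 1.04 to 1.09 times that of CA9 in the controls and 0.351 to 0.367 times in the knockdown-labelled libraries. The call of CA12 was lost without control replicate 1 (0.12) or 2 (0.13) and without knockdown replicate 1 (0.12) or 2 (0.11), values on the log2 scale. CA9 shares 643 of 1670 exonic bases with ARHGEF39 on the opposite strand, which ranged from 5.09 to 6.54 TPM over the 6 libraries with overlapping groups.

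All 3 genes for mitochondrial stress proteins were called higher, where 12.1% of all tested genes were. They were listed with this contrast known, so nothing is read from the count. BNIP3 (ENSG00000176171, chromosome 10 from 131966455 to 131982013), a BH3 protein that marks mitochondria for autophagy, was at 123.1, 123.1 and 126.9 TPM in the controls and at 397.1, 390.9 and 388.4 TPM in the knockdown-labelled libraries. It rose 3.15-fold (log2 fold change 1.65, standard error 0.0214). Pseudogenes could share its reads, and those named after it stayed at or below 0.75 TPM in every library. BNIP3L (NIX), the paralog with the same role in mitophagy, was at 34.5, 32.3 and 29.4 TPM and at 55.0, 60.5 and 56.3 TPM, a 1.79-fold rise. FAM162A, a mitochondrial protein linked to hypoxic cell death, was at 59.4, 58.8 and 65.5 TPM and at 127.0, 137.8 and 139.8 TPM, a 2.20-fold rise. For these 3 genes the groups did not overlap, with the knockdown-labelled libraries higher, as for 17.4% of all tested genes. The TPM of BNIP3 went from 3.57 to 4.32 times that of BNIP3L in the controls to 6.47 to 7.22 times in the knockdown-labelled libraries.

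Of the 4 genes for stress and restraint of growth, 3 were called higher, where 12.1% of all tested genes were. The list was made with this contrast known. DDIT4 (REDD1, chromosome 10 from 72273920 to 72276036), which inhibits mTORC1, was at 35.4, 34.8 and 36.4 TPM in the controls and at 98.2, 99.1 and 98.4 TPM in the knockdown-labelled libraries, a 2.77-fold rise (log2 fold change 1.45, standard error 0.0276). NDRG1, a stress-induced growth and differentiation gene, was at 101.2, 61.0 and 79.4 TPM in the controls and at 202.8, 197.6 and 192.1 TPM in the knockdown-labelled libraries. Its controls were widely spread, with an SD of 20.1 TPM against 5.36 TPM in the other group, yet the lowest knockdown-labelled library was above the highest control, and it rose by 1.31 on the log2 scale (standard error 0.166). ANKRD37, a small ankyrin repeat protein and HIF target, was at 4.96, 4.48 and 3.29 TPM and at 7.63, 9.55 and 9.87 TPM, a 2.12-fold rise on the TPM scale (log2 fold change 0.94). ANKRD37 shares 909 of 2580 exonic bases with UFSP2 on the opposite strand, which went from 12.9 to 17.4 TPM in the controls to 19.0 to 20.0 TPM, and the counting strand is not stated in the sources used here. WSB1, a subunit of a ubiquitin ligase, overlapped between groups (28.3 ± 0.741 and 26.2 ± 4.77 TPM, SD, n = 3 each) and was not called. Without knockdown replicate 1, the highest of its libraries at 31.5 TPM, WSB1 was called lower, at a log2 fold change of -0.26.

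The noncoding gene MIR210HG (ENSG00000247095, chromosome 11 from 565660 to 568457), the host of the hypoxia-induced miR-210, was at 4.59, 4.55 and 4.36 TPM in the controls and at 12.5, 15.6 and 16.2 TPM in the knockdown-labelled libraries. It rose 3.28-fold (log2 fold change 1.51, standard error 0.0987), with knockdown replicate 1 the lowest of its group. The miRNA itself was not measured by these libraries, in which the row of MIR210 was listed at 0 TPM throughout. Its mature arms are shown because the host transcript carries them, with the seed (bases 2 to 8) in capitals, from RefSeq on GRCh38.p14.
hsa-miR-210-3p: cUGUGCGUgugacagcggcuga
hsa-miR-210-5p: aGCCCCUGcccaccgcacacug
The arms have different seeds.

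Transcription regulators ranged from no call to a clear rise. ZNF395, a zinc finger protein, was at 4.99, 6.55 and 5.04 TPM in the controls and at 14.0, 14.3 and 14.3 TPM in the knockdown-labelled libraries, a 2.57-fold rise (log2 fold change 1.23, standard error 0.0979). FBXO16 shares 2032 of its 5819 exonic bases on the same strand and ranged from 3.42 to 7.26 TPM and from 7.39 to 9.82 TPM, so reads of the 2 genes may be divided between them with uncertainty. BHLHE40 (DEC1), a repressor in hypoxia and the circadian clock, rose 1.16-fold from 103.3 ± 5.21 to 119.4 ± 0.829 TPM, and its paralog BHLHE41 (DEC2) did not pass the test, at 13.2 ± 2.24 and 13.2 ± 0.98 TPM (SD, n = 3 each). MXI1, a MYC antagonist, rose by 0.24 on the log2 scale, a call that was lost without control replicate 1 (0.23) or 3 (0.21) and without knockdown replicate 2 (0.24) or 3 (0.23). RORA, a nuclear receptor, was at 4.76 ± 0.567 and 6.07 ± 0.567 TPM (SD, n = 3 each). RORA was not called (log2 fold change 0.30), although its groups did not overlap, and it was called without control replicate 3 (0.37), with median-of-ratios scaling and with quantile normalization (0.36 in both).

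Changes of the JmjC enzymes, dioxygenases that need oxygen and 2-oxoglutarate, were small. The histone demethylases KDM3A, KDM4B and KDM4C rose by 0.22, 0.17 and 0.21 on the log2 scale, and JMJD6, a lysyl hydroxylase, fell from 52.9 ± 0.361 to 46.0 ± 1.87 TPM (SD, n = 3 each, log2 fold change -0.20). The groups did not overlap for these 4 genes, with the knockdown-labelled libraries higher for 3 and lower for 1. Over all tested genes this was so for 17.4% (higher) and 32.8% (lower). The call of KDM4C was lost without any 1 of the 6 libraries (log2 fold changes 0.19 to 0.23), and that of KDM4B without each library other than knockdown replicate 1 (0.15 to 0.18).

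In the secretory pathway, ERO1A and TMEM45A rose, while the secreted peptides moved little. ERO1A, the oxidase that forms disulfide bonds in the endoplasmic reticulum, was at 19.6, 20.5 and 20.6 TPM in the controls and at 36.5, 38.8 and 38.8 TPM in the knockdown-labelled libraries, a 1.88-fold rise (log2 fold change 0.88). TMEM45A, a transmembrane protein, was at 17.3, 17.7 and 16.1 TPM and at 33.4, 30.7 and 30.9 TPM, a 1.86-fold rise (log2 fold change 0.86). STC2, the secreted stanniocalcin 2, rose 1.08-fold from 69.1 ± 1.71 to 74.5 ± 1.14 TPM (SD, n = 3 each), a call that held without control replicate 1 and was lost without any other library (log2 fold changes 0.09 to 0.12). ADM, the vasodilator adrenomedullin and a standard HIF target, went the other way, from 111.7 ± 2.44 to 101.6 ± 0.39 TPM (SD, n = 3 each). ADM fell by 0.13 on the log2 scale, a call that was lost with median-of-ratios scaling (-0.065) and quantile normalization (-0.05).

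Metabolic genes outside glycolysis tended higher, with AK4 in front. AK4, an adenylate kinase of mitochondria, was at 22.9, 24.0 and 22.5 TPM in the controls and at 42.4, 45.2 and 41.9 TPM in the knockdown-labelled libraries, a 1.87-fold rise (log2 fold change 0.87, standard error 0.0439). Its pseudogene AK4P1 went from 4.99 to 7.86 TPM in the controls to 10.8 to 13.5 TPM, and how reads were divided between the copies is not known. PPP1R3C, which targets a phosphatase to glycogen, rose 1.40-fold from 4.40 ± 0.444 to 6.18 ± 0.443 TPM, and HILPDA, an inhibitor of lipolysis at lipid droplets, rose 1.29-fold from 15.2 ± 1.57 to 19.5 ± 0.924 TPM (SD, n = 3 each). The call of HILPDA was lost without knockdown replicate 2 (log2 fold change 0.31). INSIG2, which retains the SREBP complex in the endoplasmic reticulum, was at 5.57 ± 1.07 and 7.98 ± 1.18 TPM (SD, n = 3 each), with overlapping groups and no call. INSIG2 was called in 7 of the 17 other settings, without control replicate 2 (0.58) or knockdown replicate 3 (0.57), with median-of-ratios scaling (0.52), quantile normalization (0.51), a pseudocount of 0.1 (0.52), a limit of 5 TPM or a replicate block (0.46 in both).

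Other genes of the pathway were taken from 3 lists of 54 genes, also chosen by name with results of these libraries known. Of the 22 glycolytic HIF targets, all tested, 18 were called higher and 4 were not called, with a median log2 fold change of 0.41, where 12.1% of all tested genes were called higher and 24.0% lower. PDK1, the kinase that holds pyruvate out of the mitochondria, rose 2.40-fold from 6.26 ± 0.558 TPM, the glucose transporter SLC2A1 from 71.0 ± 5.83 to 144.5 ± 2.85 TPM, and the lactate exporter SLC16A3 from 78.4 ± 1.78 to 155.0 ± 1.68 TPM (SD, n = 3 each). PDK1 and SLC2A1 were at least 2-fold higher, a count of 2 that was 1 without control replicate 3. Together these 22 genes took 2.22% of TPM in the controls and 2.96% in the knockdown-labelled libraries.

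Angiogenic, matrix and iron targets showed no common direction. Of 18 genes, 12 were tested, of which 5 were called higher (12.1% of all tested genes), 3 lower (24.0% of all tested genes) and 4 not, with a median log2 fold change of -0.00. The count of lower calls was thus near the share over all genes. The insulin-like growth factor binding protein IGFBP3 rose from 48.4 ± 0.531 to 99.6 ± 2.84 TPM, and the collagen hydroxylases PLOD2 and P4HA1 rose by 0.83 and 0.47 on the log2 scale. The vasoconstrictor EDN1 was close to the limit of 1 TPM, at 1.56 ± 0.292 and 0.667 ± 0.0929 TPM (SD, n = 3 each). EDN1 fell to 0.427 of the control level in TPM, and by 0.61 on the log2 scale, where the pseudocount understates it. With a limit of 5 TPM it was not tested, and 2 genes of the list were called lower, as were 3005 of all 9806 genes then tested. P4HA2, a further collagen hydroxylase, fell by 0.10 on the log2 scale. Without control replicate 1 or knockdown replicate 2, 1 gene of the list in place of 3 was called lower, and without any other library 2 were. Over all tested genes, lower calls also became fewer. They went from 3295 to 2519 without control replicate 1 and to 2727 without knockdown replicate 2. VEGFA, named here after its values were seen, was at 304.8 ± 7.04 and 313.2 ± 1.17 TPM (SD, n = 3 each), with overlapping groups and no call. Of the 14 HIF partners, ubiquitin ligase and cofactor genes, 13 were tested, with 2 called higher, 3 lower and 8 not, and a median log2 fold change of -0.05. Both counts were near the shares over all tested genes (12.1% higher and 24.0% lower), as was the median (-0.06), so they are no result about this list and the values that follow describe single genes. CITED2, which competes with HIF for its coactivators, rose by 0.32 on the log2 scale, and ELOB, a partner of VHL, by 0.23. ARNT2, the paralog of ARNT, fell from 8.39 ± 0.271 to 5.60 ± 0.13 TPM (SD, n = 3 each), the chaperone HSP90AA1 fell by 0.41 and P4HTM, a prolyl hydroxylase of the endoplasmic reticulum, by 0.20 on the log2 scale.

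**Figure D5:**
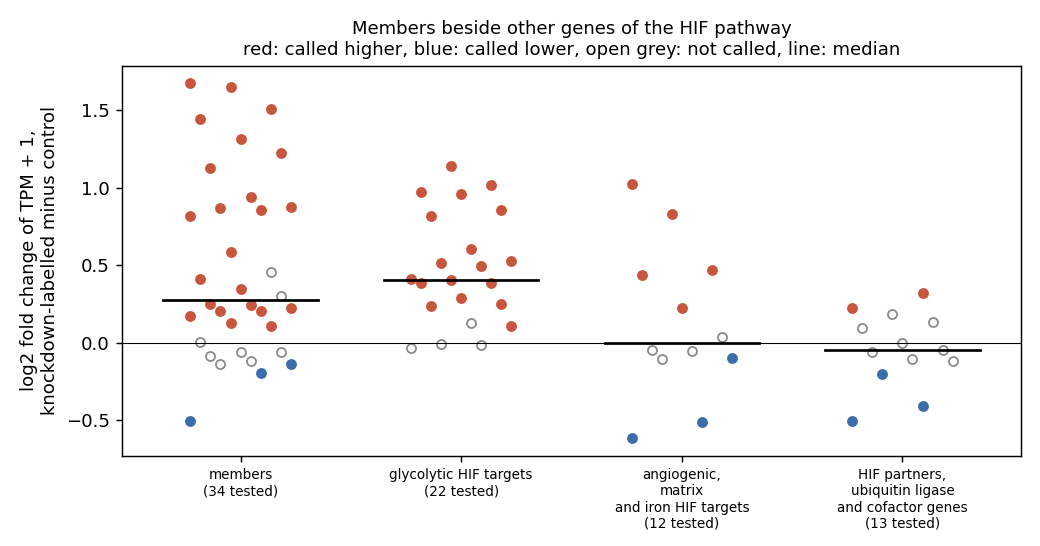
Log2 fold change of TPM + 1, knockdown-labelled minus control (y axis, log2 units), for tested genes of the 35-gene list and of 3 further lists of the HIF pathway, 1 point per gene, with the median as a line. The medians are 0.28, 0.41, -0.00 and -0.05 from left to right.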

How the data were processed

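Total RNA of 6 U87-MG samples was sequenced, 3 labelled as knockdown and 3 as control. Per the labels and the submitters' processing notes, the authors used fastp and RSEM with GRCh38.p13 and deposited TPM values, and replicates were not pooled. The labels name SMARTER libraries and an RNeasy kit, whereas the methods name TruSeq and TRIzol. TPM values carry no sequencing depth, which is unknown here, and no counting interval is given. Genes whose mean TPM reached 1 were tested on log2(TPM + 1) with limma 3.58.1 (lmFit and eBayes with trend, R 4.3.3) and Benjamini-Hochberg adjustment, with a call at an adjusted p under 0.05. A pseudocount of 1 understates fold changes of low genes. The script was tested on simulated data. Gene positions are from GENCODE 29. Genes were named as all members of the list, with values in every library for subunits, sensors, VHL, untested members and members called with a change of at least 0.5 (log2), plus, from each further list, up to 3 called genes per direction and every gene at least 2-fold changed. A gene that this rule names is not reported here. Members and lists were chosen with earlier results of these data known. In all, 17 alternative settings were run.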

Additional observations from a re-analysis of the deposited data

How the results depend on the processing

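Over 17 alternatives, 508 of the single-gene values of the 34 tested members stayed on their side of the threshold, 58 lost the call and 11 gained it. No called member changed sign, whereas EPAS1, ARNT and BHLHE41, not called, did so in some settings. Members called higher numbered 14 at an adjusted p under 0.01, and 16 to 19 with 1 library left out. With 1 library left out, 1331 to 1464 of all tested genes were called higher and 2519 to 2746 lower. With median-of-ratios scaling, glycolytic targets at least 2-fold higher numbered 4 and HIF partner genes called higher 4. Of all 13722 tested genes, 102 were then at least 2-fold higher and 2306 were called higher. With a pseudocount of 0.1, 2 angiogenic, matrix and iron targets and 399 of all genes passed the 2-fold limit, against 145 of all genes with a limit of 5 TPM. At an adjusted p under 0.01, 1 angiogenic, matrix or iron target was lower, and 1881 of all genes were lower and 958 higher. Leaving out 1 library gave 1 to 2 glycolytic targets at least 2-fold higher and 1 to 2 angiogenic, matrix or iron targets lower. PFKP, at -0.01 and not called, was called higher with median-of-ratios scaling (0.062) and quantile normalization (0.063), and HK1 (0.034 and 0.029) and PFKFB3 (0.056 and 0.064) changed sign there without a call. Glycolytic targets called higher then numbered 20 and 19, where 2306 and 2233 of all 13722 tested genes were. The causes were not tested.

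Replicate numbers were shared between groups, but the deviations of same-numbered samples correlated at only -0.0198, 0.0341 and 0.0334, so the numbers were not taken as pairs. With a replicate block, 17 members were higher and 3 lower, and 1 angiogenic, matrix or iron target was lower. Of all 13722 tested genes, 1369 were then higher and 2638 lower. Without read depth, low genes such as EGLN3 and CHRM3 cannot be given a detection limit.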
